A study of Homo sapiens with 4 samples.

Results

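In an iCLIP experiment on the RNA-binding protein PDCD4, the positions that were listed both for the PDCD4 immunoprecipitation and for the IgG control were examined. A position was a member when its chromosome, its coordinate and its strand were the same in the 2 lists, whatever its score, and 721 of the 269562 listed positions met this rule. Material came from MCF10A, an established non-transformed breast epithelial line with wild-type PDCD4, grown without any perturbation. PDCD4 antibody was used for 2 replicates and isotype control IgG for the other 2, and the authors pooled the replicates of each into 1 list. Replicates could therefore not be compared, the antibodies could not be tested against each other, and every interval below is a 95% Wilson interval that covers counting error only. Each position is 1 nt wide, and its score is the number of cDNAs counted there. Members were chosen by their presence in the lists, that is, by measured cDNAs, so the sharing and both scores are given as descriptions.

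PDCD4 is a tumour suppressor with an RNA-binding amino-terminal region and MA3 domains through which it can bind the translation initiation factor eIF4A. In iCLIP, UV light joins protein to RNA at points of contact, and reverse transcriptase tends to halt at the residual peptide, so a cDNA usually starts next to the cross-linked nucleotide. Uridine cross-links more readily than the other bases under UV light. An isotype IgG recognises no protein of the cell, so its libraries sample RNA that is carried through the purification without the antibody's target, and abundant or sticky RNAs are commonly found there. A position that is listed for both antibodies is thus one where the same nucleotide yielded cDNAs with and without a specific antibody.

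The 21 nt around 7 of the shared positions with the highest summed scores are shown here because these are among the nucleotides with most cDNAs in the lists together. The listed nucleotide is in capitals, sequences are read 5′ to 3′ on the transcribed strand of GRCh38 with T for uridine, and only the best position of a gene is given. The windows lay at chr15:66502082-66502102 (minus strand) for RPL4, chr17:7312123-7312143 (plus) for EIF5A, chr6:44253635-44253655 (plus) for HSP90AB1, chrM:7773-7793 (plus) for MT-CO2, chr1:173864436-173864456 (minus) for GAS5, chr21:8210105-8210125 (plus) for ENSG00000278996 and chrM:1320-1340 (plus) for MT-RNR1.
RPL4: ttatttaactGtcaaaatgat
EIF5A: tttttttaatTcaatctggaa
HSP90AB1: atagtgtcccCatgggctccc
MT-CO2: ccgtctgaacTatcctgcccg
GAS5: attttcagtgTaaccaatgat
ENSG00000278996: caggcgcgcaAattacccact
MT-RNR1: gacgttaggtCaaggtgtagc
These windows had little in common. Between 3 (ENSG00000278996) and 11 (EIF5A) of their 21 nt were uridines, and the listed nucleotide itself was a uridine in EIF5A, MT-CO2 and GAS5.

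Of the shared positions, 60 lay in dense runs, in which 3 or more followed each other with gaps of at most 20 nt. The 3 longest runs had 6 positions each, and 2 of them are shown because no run held more members, with every shared nucleotide in capitals. The 3 lay in the 3′UTRs of GPRC5A, an orphan G protein-coupled receptor (chr12:12915018-12915031, plus strand), HNRNPL, a splicing regulator (chr19:38836597-38836626, minus), and PTGES, the microsomal prostaglandin E synthase.
GPRC5A: ttttTTTTTTtttt
HNRNPL: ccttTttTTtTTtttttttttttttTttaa
Uridine tracts carried the GPRC5A and HNRNPL runs. For each position of the GPRC5A run, the 30 nt that begin 1 nt downstream occur at several places in the genome, from 5 to 61. For the HNRNPL run they occur at 1 or 2 places and for the PTGES run at 1. The part of such repeated sequence in the GPRC5A run was not tested. The HNRNPL run also lies in the overlapping gene ENSG00000268083, and with the labels of both lists joined these positions carried both genes. The summed scores of the 6 positions were 10 PDCD4 and 9 IgG cDNAs in GPRC5A, 8 and 8 in HNRNPL, and 13 and 12 in PTGES.

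Identical positions were a small fraction of each list. The 721 made up 0.454% (0.422 to 0.488) of the 158922 PDCD4 positions and 0.647% (0.602 to 0.696) of the 111361 IgG positions. Their scores summed to 1908 of the 409308 PDCD4 cDNAs (0.466%) and to 1874 of the 276139 IgG cDNAs (0.679%). They lay on the plus strand in 374 cases and on the minus strand in 347. Chromosome 1 held the most (92), and the mitochondrial genome held 8, which were 1.47% of its 544 PDCD4 positions and 3.19% of its 251 IgG positions. The cell line was checked by its markers: KRT5, a basal keratin, had 105 PDCD4 and 30 IgG positions, EGFR had 250 and 252, CDH1 29 and 26, TP63 13 and 6 and KRT17 10 and 4, whereas KRT14 had 1 and 0. The leukocyte, endothelial, fibroblast and muscle markers PTPRC, PECAM1, COL1A1 and DES had none in either list.

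According to the methods, sites seen with IgG were taken out of the PDCD4 data ahead of peak calling. How this was done, and whether the deposited PDCD4 scores precede or follow it, is not given in the sources used here. How often an IgG position lay at each distance from a PDCD4 position was therefore counted. On the same strand, 721 pairs had a distance of 0, 772 had the IgG position 1 nt upstream, 752 had it 1 nt downstream, 715 were 2 nt upstream and 643 were 2 nt downstream. The number at 0 was thus below those at 1 nt and close to those at 2 nt. In introns (134 at 0, 123 and 111 at 1 nt) and coding sequence (176, 166 and 170) it was above both neighbours, and in 3′UTRs (324, 370 and 367), ncRNA (69, 82 and 85) and 5′UTRs (17, 31 and 19) below both. Beyond these, pairs became fewer with distance. Offsets of 1 to 10 nt held a mean of 514.75 pairs, from 391 to 772, and offsets of 41 to 50 nt a mean of 253.45. The number at 0 was 1.40 times the mean at 1 to 10 nt. On opposite strands 2 pairs had a distance of 0, and no offset up to 50 nt had more than 4. The clustering was therefore seen only between positions on the same strand. Relative to the mean at 1 to 10 nt, the number at 0 was 1.84 times as high for introns, 1.64 for coding sequence, 1.23 for 3′UTRs, 1.23 for ncRNA and 1.13 for 5′UTRs.

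**Figure D1:**
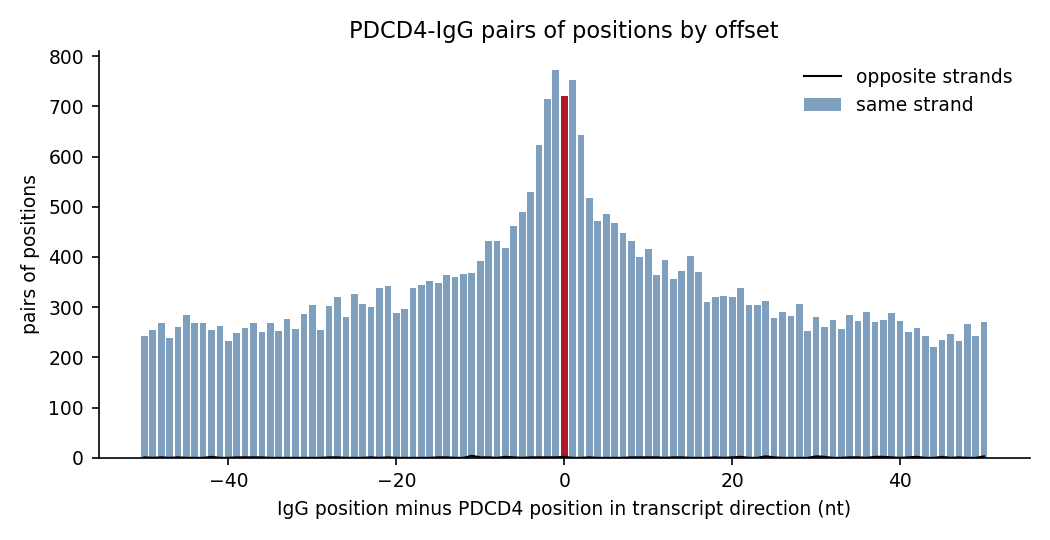
Number of pairs of a PDCD4 and an IgG position (y axis) at each distance between them in nt (x axis, negative where the IgG position is upstream), with bars for the same strand, the red bar for identical positions and the black line for opposite strands. The 721 identical pairs sit between the bars at 1 nt (772 and 752) and those at 2 nt (715 and 643), and the opposite strands stay at or below 4 pairs.

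Widening the match shows how many positions came close without being identical. An IgG position lay within 1 nt of 1964 PDCD4 positions (1.24%), within 5 nt of 4754 (2.99%), within 10 nt of 7248 (4.56%) and within 50 nt of 19048 (11.99%). In the other direction, a PDCD4 position lay within 10 nt of 5797 IgG positions (5.21%). Positions within 10 nt of the other list but not identical to any in it, 6527 for PDCD4 and 5076 for IgG, are called near positions below.

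The neighbourhood of a shared position was denser than that of other positions. Within 10 nt, a shared position had a mean of 1.81 further PDCD4 positions and 1.13 further IgG positions, against 0.448 PDCD4 positions around those of the PDCD4 list only and 0.201 IgG positions around those of the IgG list only. Of the shared positions, 217 (30.1%) had no other listed position of either kind within 10 nt, compared with 76.1% of positions in the PDCD4 list only and 84.9% of those in the IgG list only. Shared positions also adjoined each other. When members with gaps of at most 20 nt were joined, 633 runs resulted, of which 573 held 1 position, 44 held 2 and 16 held 3 or more.

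Shared positions were found mostly in mature transcripts, and above all in 3′UTRs. The 3′UTR held 324 (44.9%, 41.3 to 48.6), coding sequence 176 (24.4%, 21.4 to 27.7), introns 134 (18.6%, 15.9 to 21.6), ncRNA exons 69 (9.57%) and 5′UTRs 17 (2.36%), and 1 lay in no annotated gene on its strand. Among positions of the PDCD4 list only, 20.95% were in 3′UTRs, 20.9% in coding sequence and 49.8% in introns. Among those of the IgG list only, the shares were 17.4%, 9.63% and 66.3%. The 3′UTR share of the shared positions was therefore more than that of either list, and the intron share less, by far more than the intervals. Within the genes that held a shared position, 24.6% of the remaining PDCD4 positions and 20.4% of the remaining IgG positions were in 3′UTRs. Near positions, in contrast, resembled the shared ones, with 47.1% of the PDCD4 and 45.4% of the IgG near positions in 3′UTRs and 16.7% and 19.7% in introns.

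**Figure D2:**
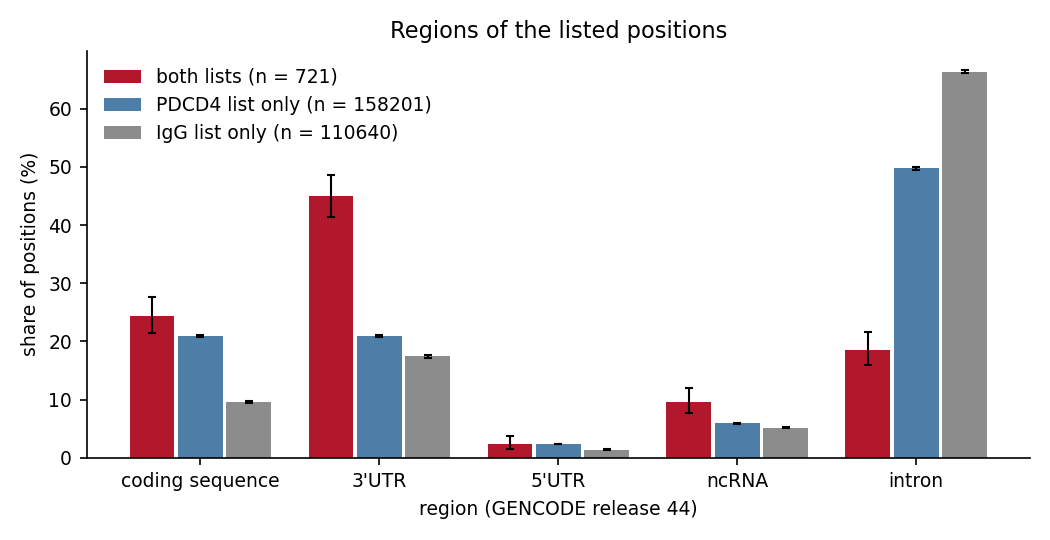
Share of positions in percent (y axis) in each transcript region (x axis) for positions in both lists and for those of the PDCD4 or the IgG list only, with 95% Wilson intervals as error bars. The positions in both lists have 44.9% in 3′UTRs and 18.6% in introns, against 49.8% and 66.3% in introns for the single lists.

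Seen from each region, the fraction of listed positions that were shared also varied. In 3′UTRs 0.968% (0.868 to 1.08) of PDCD4 positions and 1.65% (1.48 to 1.84) of IgG positions were shared, in coding sequence 0.530% and 1.63%, and in introns 0.170% and 0.182%. From the IgG side, 3′UTRs and coding sequence thus did not differ beyond their intervals. From the PDCD4 side they did, the PDCD4 list having 33222 coding positions and the IgG list 10827. Within the 3′UTR, 0 being the stop codon and 1 the transcript end, the median place was 0.317 for 317 shared positions, 0.375 for the PDCD4 list only and 0.401 for the IgG list only. The shared position closest to a transcript end was 63 nt away from it.

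The listed nucleotide was a uridine at 422 shared positions (58.5%, 54.9 to 62.1), a cytidine at 193 (26.8%), a guanosine at 59 (8.18%) and an adenosine at 47 (6.52%). Uridine made up 46.6% in the PDCD4 list only and 51.5% in the IgG list only, and 53.1% and 52.2% at the near positions, so the uridine share of all shared positions was above each of these, although close to the upper bound of 54.4% for the PDCD4 near positions. It was 55.9% (52.0 to 59.7) with each run counted once, where its interval took in the near positions. With scores above 1 in both lists it was 54.3% (50.07 to 58.5), against 45.7% and 50.9% in the single lists filtered alike, and with PDCD4 scores above 5 it was 39.3% (23.6 to 57.6), against 38.6% in the PDCD4 list only. Adenosine was the base with the lowest share, against 13.5% in the PDCD4 list only and 13.5% at the PDCD4 near positions. In 3′UTRs uridine reached 68.2% of shared positions, compared with 52.3% and 54.2% for the single lists. In 5′UTRs it was 70.6% (46.9 to 86.7, 12 of 17), against 38.3% in the PDCD4 list only and 39.3% in the IgG list only. In introns it was 61.2% (52.7 to 69.0), against 50.1% and 53.5%, and in ncRNA 58.0% (46.2 to 68.9), against 43.9% and 48.7%. In coding sequence, by contrast, it was 38.1% (31.2 to 45.4), an interval that took in the 34.4% and 36.1% of the single lists.
The surrounding nucleotides were uridine-rich too, with 56.6% uridine 1 nt upstream and 55.1% 2 nt downstream. The nucleotide 1 nt downstream, with which a cDNA begins when it stops before the listed one, was a uridine at 50.9% of shared positions, an adenosine at 40.4% and a guanosine at only 1.80%. A scarcity of guanosine there was not particular to shared positions, as the PDCD4 list only had 3.78%.
The motif TTTT, on the transcribed strand within 10 nt either side of the listed nucleotide, was present in 35.8% (32.4 to 39.3) of shared windows, against 26.4% and 31.7% in the single lists and 40.4% and 39.9% at near positions. AAAA was present in 5.69%, TGTG in 6.80%, CCCC in 6.66% and GGGG in 4.85% of shared windows, against 8.98%, 8.14%, 5.94% and 5.76% in the PDCD4 list only.

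**Figure D3:**
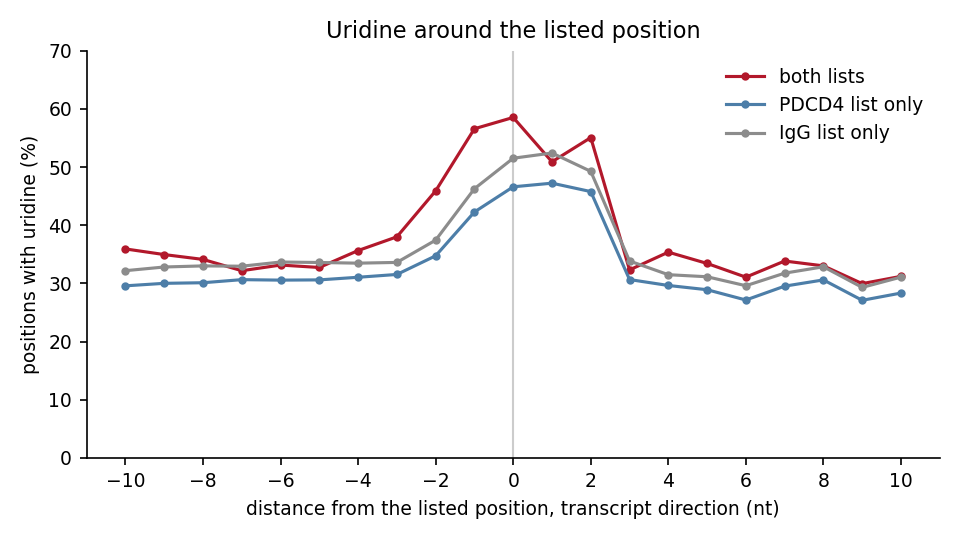
Share of positions with uridine in percent (y axis) at each distance in nt from the listed position (x axis, downstream to the right) for positions in both lists and for those of the PDCD4 or the IgG list only. At distance 0 the shares are 58.5%, 46.6% and 51.5%, and 1 nt downstream the positions in both lists drop to 50.9%.

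The dense runs stood out in both respects. Of the 60 positions in runs of 3 or more, 57 were in 3′UTRs (95%, 86.3 to 98.3), the listed nucleotide was a uridine in 88.3% (77.8 to 94.2), and a median of 16 of the 21 nt around them were uridines. Of the 573 isolated shared positions, 37.5% (33.7 to 41.6) were in 3′UTRs, 54.1% (50.01 to 58.1) were uridines and the median was 7 uridines in 21 nt. Runs of 2 lay between, with 59.1% and 67.0%. Mean scores went the other way: 2.78 PDCD4 and 2.72 IgG cDNAs at isolated positions, and 1.85 and 1.87 in runs of 3 or more. In some runs of 3 or more the 30 downstream nt occur at many places in the genome, as in GPRC5A, F3, ITCH and TNS4. In others they occur at 1 place, as in CD44, MTA2 and YWHAE.

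For 132 shared positions, the 30 nt that begin 1 nt downstream occurred at more than 1 place in the genome, at 2 to 10 places for 88 and at over 10 for 44. The 30 nt had a single place for 81.7% (78.7 to 84.3) of shared positions, for 90.3% of positions in the PDCD4 list only, for 90.1% in the IgG list only and for 85.3% and 86.3% of near positions. In 3′UTRs 20.4% of shared positions had several places, against 7.98% and 7.31% in the single lists, and in introns 23.9% against 12.2% and 11.49%. Repeated sequence was thus more frequent at shared positions, and its part in their sharing was not tested.

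The score of a shared position said little about its score in the other list. PDCD4 had the higher score at 245 positions (34.0%, 30.6 to 37.5), IgG at 248 (34.4%, 31.02 to 37.9), and 228 (31.6%, 28.3 to 35.1) were equal. The median log2 ratio of the PDCD4 to the IgG score was 0, with quartiles of -0.58 and 0.58. The most frequent pair was a score of 2 in each, at 131 positions, and 507 positions (70.3%) differed by at most 1 cDNA. Only 40 positions differed by 4-fold or more, of which 15 were higher in PDCD4 and 25 in IgG. Over the 721 positions, which come from the same pair of lists and mostly hold 1 to 3 cDNAs, Pearson's r was 0.114 and Spearman's rho 0.135. For the 534 positions with scores above 1 in both, they were 0.092 and 0.084. At such low counts these weak values are descriptions. The mean PDCD4 score over the mean IgG score was 1.02 at shared positions and 1.04 over all positions of the lists, whereas the summed scores of the whole lists had a ratio of 1.48. Divided by the summed score of its list, the PDCD4 score was the higher at 210 positions (29.1%) and the IgG score at 511 (70.9%). This scaling multiplies all positions alike and leaves no ties, so the 228 equal scores all count as higher in IgG.

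**Figure D4:**
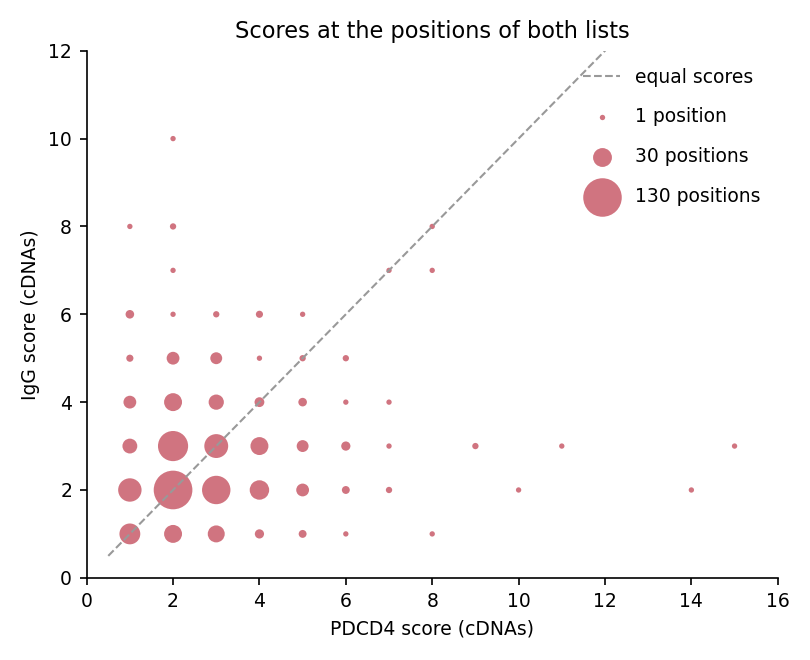
IgG score (y axis) against PDCD4 score (x axis), both in cDNAs, at the 721 positions of both lists, with the area of a point growing with the number of positions and the dashed line for equal scores. The largest point is at 2 and 2 (131 positions), and PDCD4 scores of 9 or more go with 2 or 3 IgG cDNAs.

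The summed scores of both antibodies were close in the main regions. The summed PDCD4 and IgG scores were 794 and 791 in 3′UTRs, 514 and 500 in coding sequence, 360 and 337 in introns and 199 and 193 in ncRNA. In 5′UTRs they were 38 and 51, over 17 positions. Introns had the largest share of equal scores, 41.8% (33.8 to 50.3), and coding sequence a share of 23.3% (17.7 to 30.1). Pearson's r was 0.232 and Spearman's rho 0.239 over the 134 intronic positions, and -0.015 and -0.031 over the 176 coding ones.

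Shared positions were over-represented at both ends of the score range. A score of 1 was held by 17.2% of shared positions for PDCD4 and 13.9% for IgG, against 7.40% and 5.17% of the remaining positions. Both scores were 1 at 21.7% of shared positions in runs of 3 or more, against 1.92% of isolated ones. The lists hold sites kept by peak calling, whose part in this was not tested. Scores above 5, the threshold named in the study's methods, were held by 28 shared positions (3.88%) for PDCD4 and 20 (2.77%) for IgG, against 1.47% and 0.676% of the remaining positions. Among PDCD4 positions, 1.05% of those with a score of 1 were shared, 0.361% of those with 2, 0.362% with 3, 0.532% with 4, 0.916% with 5 and 1.20% with 6. Among IgG positions these shares were 1.72%, 0.484%, 0.618%, 0.813%, 1.53% and 2.15%, and 3.81% for 7 or more. In each list the lowest share was thus at a score of 2. The highest shared score was 15 for PDCD4 and 10 for IgG, although the lists reached 87 and 22.

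**Figure D5:**
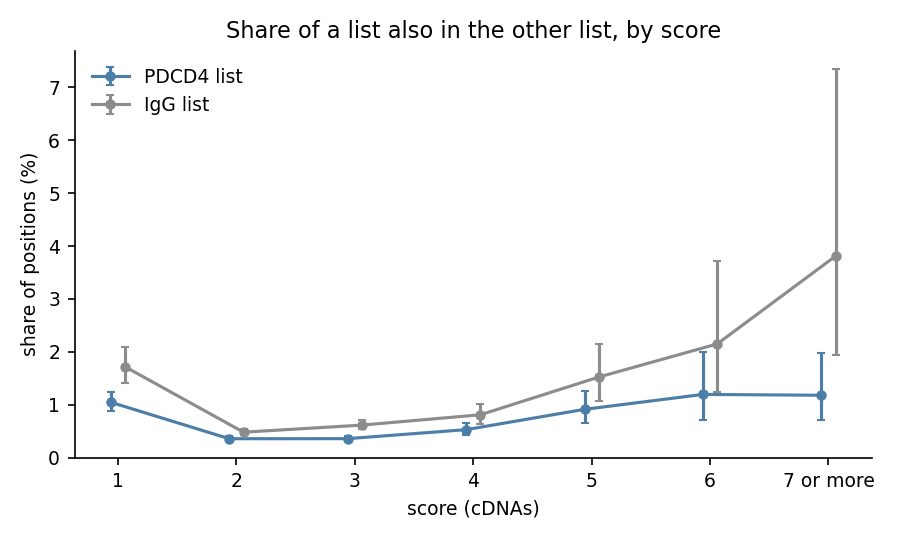
Share of positions in percent that are also in the other list (y axis) for each score in cDNAs (x axis), for the PDCD4 and the IgG list, with 95% Wilson intervals as error bars. Both lists have their lowest share at a score of 2 (0.361% and 0.484%), and the IgG list reaches 3.81% at scores of 7 or more.

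Only 3 positions had scores above 5 in both lists. The position in the 3′UTR of HSP90AB1, which encodes a cytosolic chaperone (chromosome 6, 44253645), had 8 cDNAs in each list. The position in GAS5, a host gene of small nucleolar RNAs (chromosome 1, 173864446), had 7 in each. The position in an intron of the lncRNA LINC00486 had 8 PDCD4 and 7 IgG cDNAs. It was the only IgG position of that gene, against 5 PDCD4 positions, and its 30 downstream nt occur at 6 places in the genome.
Most of the other high scores were matched by few cDNAs in the other list. Where PDCD4 exceeded 5, the median IgG score was 3, and where IgG exceeded 5, the median PDCD4 score was 2. Over all shared positions the median was 2 in each list. The highest PDCD4 score was at chromosome 15, 66502092, in RPL4, which encodes a protein of the large ribosomal subunit, with 15 PDCD4 and 3 IgG cDNAs. EIF5A, a translation factor, followed with 14 and 2 cDNAs in its 3′UTR (chromosome 17, 7312133), where the 30 downstream nt occur at 3 places. The mitochondrial mRNA MT-CO2 had 11 and 3, ENSG00000278996 had 10 and 2 and the mitochondrial small ribosomal RNA MT-RNR1 had 9 and 3. For ENSG00000278996 and MT-RNR1 the 30 downstream nt occur at 5 and 7 places. The position in ENSG00000278996 falls within the 18S rRNA gene RNA18SN2 of RefSeq (GRCh38.p14), at its nucleotide 485, and a position at its nucleotide 482 had 1 cDNA in each list. A further shared position, with 6 PDCD4 and 5 IgG cDNAs, falls within RNA28SN3, a 28S rRNA gene, so the intron class that GENCODE gives to these 3 positions holds ribosomal RNA.
The highest IgG score, 10 against 2 for PDCD4, was in NEAT1, the architectural RNA of paraspeckles (chromosome 11, 65428512). ACTB, encoding beta-actin, had 8 IgG and 2 PDCD4 cDNAs in its coding sequence (chromosome 7, 5528606), and PTGES had 8 and 2 in its 3′UTR (chromosome 9, 129738505). PABPC1, the cytoplasmic poly(A)-binding protein, had 2 such positions in its 3′UTR on chromosome 8, with 8 and 6 IgG cDNAs against 1 PDCD4 cDNA each.
The most uneven ratios were found at the same kinds of positions. Ties were ordered by the summed score. Toward PDCD4 they were RASGEF1B, encoding a guanine nucleotide exchange factor, with 8 and 1 (log2 ratio 3), EIF5A (2.81), UHMK1, a kinase gene, with 6 and 1 (2.58), and RPL4 and ENSG00000278996 (2.32 each). Positions in DDIT4, NEAT1, CHD4 and RUBCNL, with 5 and 1 cDNAs, had the same ratio of 2.32. The 30 nt downstream of the RASGEF1B position, in an intron, occur at 441 places. Toward IgG they were PABPC1 (-3), and HPCAL1, a neuronal calcium sensor gene, KRT7, a simple-epithelial keratin, MYL12B, a myosin light chain, and the second PABPC1 position, with 6 IgG cDNAs and 1 PDCD4 cDNA each (-2.58), as also had a position in TNS4. At a score of 1 the ratio rests on a single cDNA.

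Small non-coding RNAs had a larger share of the shared positions than of the lists. Inside annotated small RNA genes lay 22 shared positions (3.05%, 2.02 to 4.58), against 0.662% of positions in the PDCD4 list only and 0.374% in the IgG list only. The 2 mitochondrial ribosomal RNAs, with 336 PDCD4 and 43 IgG positions by label, were counted among these genes. Of these 22, 9 were in genes of small nucleolar RNAs (snoRNAs, which guide modification or processing of ribosomal RNA), 5 in snRNA genes (RNAs of the spliceosome), 6 in genes named as scaRNAs (guides for the modification of snRNAs, 3 of these positions being in SCARNA10 and SCARNA12, which GENCODE types as snoRNA), 1 in 7SK and 1 in MT-RNR1. SNORA73B alone had 4, with 1, 3, 4 and 4 PDCD4 cDNAs and 3, 2, 2 and 2 IgG cDNAs.
A further 9 shared positions (1.25%, 0.658 to 2.36) lay at the annotated 5′ end of a snoRNA, scaRNA or snRNA gene or at most 3 nt before it, which was so for 0.0904% of positions in the PDCD4 list only and 0.0280% in the IgG list only. This feature was looked for after the RPL4 window had been seen. The RPL4 position with the highest PDCD4 score lay 1 nt before the first nucleotide of SNORD18B, a snoRNA in an intron of RPL4. Positions 1 nt before a first nucleotide were also found at SNORD25 in SNHG1 (7 PDCD4 and 4 IgG cDNAs), SNORA6 in RPSA (4 and 6), RNU2-6P in RUBCNL (5 and 1) and SNORA33 in RPS12 (2 and 1), with a neighbour 1 nt upstream in RPS12 (2 and 2). The others were at SNORA8 in TAF1D (4 and 3), SCARNA22 in NSD2 (2 and 3) and SNORA13 in EPB41L4A-AS1 (3 and 1). The 9 positions are thus listed under their host genes, while cDNAs that begin there start at or near the 5′ end of a small RNA.

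The 721 positions carried the labels of 486 genes, of which 443 were protein-coding and 24 lncRNA genes. Most genes (360) had 1 shared position, 71 had 2, 55 had 3 or more and 22 had 5 or more. The 10 genes with the most held 87 positions (12.1%). TNS4, which encodes a tensin of focal adhesions, had 11, of which 9 were in its 3′UTR, with summed scores of 34 PDCD4 and 29 IgG cDNAs. For several of its 3′UTR positions the 30 downstream nt occur at many places in the genome, up to 26562. PTGES also had 11, with 10 in the 3′UTR and 30 cDNAs in each list. MALAT1, a lncRNA of nuclear speckles, had 10, with 24 PDCD4 and 29 IgG cDNAs, and NEAT1 had 9, with 28 and 32.
The cytosolic chaperone HSP90AA1 had 10, of which 7 were coding, with 22 and 23 cDNAs, and HSP90AB1 had 7, with 28 and 22. PLEC, encoding the cytoskeletal linker plectin, had 8, all in its coding sequence, with 23 and 21. GPRC5A had 8, all in its 3′UTR, with 15 and 15. SLC7A5, an amino acid transporter gene, had 7, with 16 and 21, and HPCAL1 had 6, all intronic, with 15 and 20. ACTB, NUCKS1, ACTG1, PABPC1 and HNRNPL also had 6, and HPCAL1 stands among the 10 only by the summed score of all its positions, which settled ties. Among these tied genes the sums ranged from 8 and 8 in HNRNPL to 9 PDCD4 and 25 IgG cDNAs in PABPC1.
In most of these genes the numbers of all listed positions differed far more. PLEC had 1062 PDCD4 but 61 IgG positions, and HSP90AA1 266 and 63, while NEAT1 had 179 and 400, MALAT1 125 and 269, and HPCAL1 186 and 411, although GPRC5A had 58 and 62. The fraction that was shared differed accordingly, at 0.753% of PDCD4 and 13.1% of IgG positions in PLEC and at 3.23% and 1.46% in HPCAL1. HMGN2, a nucleosome-binding protein gene with 17 PDCD4 and 12 IgG positions, had 5 of them in common (29.4% and 41.7%). HNRNPL had 6 shared positions, all in its uridine tract, and its label was on 25 PDCD4 and 16 IgG positions. Outside the shared positions 19 and 12 of these remained, as some of the 6 lacked the HNRNPL label in the IgG list.

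Whether a gene had a shared position went with how many positions it had. Of the 10362 genes with positions in both lists, 9886 had none in common. By the smaller of a gene's numbers of positions in the lists, the share of genes with a shared position was 0.979% at 1 to 4, 3.34% at 5 to 9, 7.88% at 10 to 24, 16.9% at 25 to 49, 28.3% at 50 to 99 and 54.3% (25 of 46 genes) at 100 or more.
Among these 46 genes with 100 or more in each list, a difference by region was seen again. The 21 without a shared position, which include EGFR, the cadherin gene CDH4 (482 and 383 positions) and the lncRNA gene PVT1 (338 and 339), had a median of 92.2% of their positions in introns, from 67.6% to 99.3%. The 25 with one had a median of 75.2%, from 0% in MALAT1 and NEAT1 to 99.8% in ADARB2. In EGFR, the receptor gene, 77.5% of the 250 PDCD4 and 252 IgG positions were in introns, and in ADARB2, with 280 and 258 positions, 3 were shared.

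For each gene, the summed scores outside the shared positions were compared, per 10000 cDNAs of the list and with 1 cDNA added. A log2 ratio above 1, higher in PDCD4, was found in 27.7% of the 14415 genes with such positions, and in 120 of the 485 genes with a shared position (24.7%, 21.1 to 28.8), a share near that of all genes. A log2 ratio below -1, higher in IgG, was found in 23.4% of all genes and in 43 of the 485 (8.87%, 6.65 to 11.7). Genes with few positions give extreme ratios easily, and few of them had a shared position. Among genes with 10 or more positions in each list, a restriction chosen with values in view, 5.67% of all 2996 genes were above 1, compared with 65 of the 353 that had a shared position (18.4%, 14.7 to 22.8), and 12.1% were below -1, compared with 23 (6.52%, 4.38 to 9.59). The median log2 ratio was 0.10 in these 353 genes and -0.31 in all 2996. Genes with a shared position thus extended to both sides: PLEC had a log2 ratio of 4.05, HSP90AB1 2.61, HSP90AA1 2.17, ACTB 2.13 and SLC7A5 1.03, TNS4 0.50 and GPRC5A -0.57, and PTGES -1.47, HPCAL1 -1.73, MALAT1 -1.83 and NEAT1 -1.85. RNA abundance was not analysed here, and its part in these values was not tested.

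By gene group, cytoskeletal genes most often had a shared position, in 10 of the 13 that had any listed position, against 486 (3.37%) of all genes. They also had many positions, as 12 of the 13 had 25 or more in each list, a level at which 16.9% to 54.3% of genes had a shared position. At that level 10 of the 12 cytoskeletal genes had a shared position, and so had 3 of 3 keratins. The cytoskeletal genes held 31 shared positions, with 86 PDCD4 and 82 IgG cDNAs. Beside PLEC (8), these were in the actins ACTB and ACTG1 (6 each), the non-muscle myosin gene MYH9 (3), ACTN4 and FLNA (2 each) and, among genes with 1 each, ACTN1, SPTAN1 and SPTBN1. Outside the shared positions, 7 of the 13 had a log2 ratio above 1 and 0 below -1, with a median of 1.21. The shares were 27.7% and 23.4% over all genes, and 5.67% and 12.1% over genes with 10 or more positions in each list.
Keratins had shared positions in 3 of 12 genes, KRT7 (5), KRT5 (4) and KRT81 (4), with 34 PDCD4 and 39 IgG cDNAs. Among genes of adhesion and matrix, 4 of 14 had shared positions: CD44, the hyaluronan receptor, and THBS1, thrombospondin, with 4 each, and the integrin and laminin genes ITGA6 and LAMA3 with 1 each. The summed scores were 24 and 21. All 4 positions of CD44 followed each other within 4 nt of its 3′UTR. At 25 or more positions in each list, 3 of 3 keratins and 4 of 10 adhesion and matrix genes had a shared position. For all genes at this level the share was 16.9% to 54.3%.
Nuclear lncRNAs had 25 shared positions in 7 of 31 genes, with 74 and 77 cDNAs, and 19 of the 25 were in MALAT1 and NEAT1. Genes of nuclear speckles and splicing had 19 in 9 of 37, of which HNRNPL held 6 and SRRM2, which encodes a scaffold of speckles, 3. Ribosomal protein genes had 14 in 11 of 93, with 50 and 45 cDNAs, of which RPL4 held 3 with 27 and 8. Several of these lay at snoRNAs hosted by the genes. In RPL4, the position with 15 and 3 cDNAs lay just before SNORD18B, and that with 3 and 2 inside SNORD18C. The RPS12 positions lay just before SNORA33 and the RPSA position just before SNORA6. The RPS20 position, in its 5′UTR, had 2 and 7. At 25 or more positions in each list, 3 of 5 nuclear lncRNAs had a shared position. The same held for 3 of 10 speckle and splicing genes and 0 of 2 ribosomal protein genes.
Mitochondrial mRNAs had 7 in 4 of 12 genes, with 29 and 19 cDNAs: MT-CO1 (3), MT-CYB (2), MT-CO2 and MT-ND5 (1 each), all subunits of the respiratory chain. Of the 2 mitochondrial ribosomal RNAs, MT-RNR1 had 1. By label, 12 of 141 small RNA genes, here without mitochondrial ribosomal RNA, had 1 each. These are fewer than the 22 positions counted above, which include MT-RNR1. A position inside a small RNA is also often labelled with its host gene.
The median log2 ratio outside the shared positions was -0.69 for the mitochondrial mRNAs, -0.06 for the nuclear lncRNAs, 0.07 for the speckle and splicing genes, 0.79 for the ribosomal protein genes, 0.93 for adhesion and matrix, 1.26 for the keratins, 1.75 for the small RNAs and 3.20 for the 2 mitochondrial ribosomal RNAs, against -0.07 over all genes. These medians cover every gene of a group with a listed position, and the groups differ in how many positions their genes have.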

How the data were processed

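iCLIP libraries of 2 PDCD4 and 2 IgG immunoprecipitations from MCF10A cells were analysed. The authors processed reads with iCount on GRCh38 (Ensembl release 88) and deposited 1 list of 1-nt positions for each antibody, pooled over replicates, with the raw cDNA count as the score. A threshold of more than 5 cDNAs, given in the methods, is not applied in these lists and was not applied here. Settings of alignment and of collapsing cDNAs are not given in the sources used here. Since replicates are pooled, samples enter as 2 lists and no p-value was computed. The lists held 409308 and 276139 cDNAs.

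Positions were matched by chromosome, coordinate and strand. Regions were taken from GENCODE release 44 on the same strand, over all transcripts, with coding sequence first, then 3′UTR, then 5′UTR, then ncRNA (any exon of a non-coding transcript, also of a protein-coding gene) and last intron. Genes are those of the authors' labels. Labels differed between the lists at 35 shared positions, where the genes of both were used, and 42 positions had several genes. Small RNA genes are those of GENCODE, counted with the mitochondrial ribosomal RNAs for positions inside them. Nuclear ribosomal RNA genes are those of RefSeq (GRCh38.p14). Sequences come from the reference genome, and a few items of these results are not reported here. As that genome carries no repeat mask, the number of places at which the downstream 30 nt occur in chromosomes 1 to 22, X, Y and the mitochondrial genome was counted instead, a measure chosen after the files were seen. Gene ratios are log2 ratios of summed scores per 10000 cDNAs with a pseudocount of 1.

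Named genes are the 10 with most shared positions, those of the 5 highest scores in each list and of the 5 highest and lowest score ratios, those above 5 in both lists and members of the gene groups. Genes named for runs, small RNA ends, ribosomal RNA or numbers of positions, and HMGN2, were chosen after their values were seen. The members, groups and rules were chosen with earlier results of these data known. The matching, offset counts and intervals were tested on simulated data. Alternatives were the match, score minimum, order of regions, transcripts, nucleotide read, scaling, pseudocount, and leaving out the mitochondrial genome, leading genes, runs or positions of several genes. Software was numpy 2.4.6, scipy 1.17.1, pandas 2.3.3 and, for plots, matplotlib 3.10.9, under Python 3.11.15.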

Additional observations from a re-analysis of the deposited data

How the results depend on the processing

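Each list pools its replicates, so no replicate could be left out. No paired analysis was possible because the lists carry no value per replicate. Allowing 1 nt between the lists raised the shared positions from 721 to 1964. Against offsets of 1 to 50 nt, the number of identical pairs was 2.14 times the mean, not 1.40 times. The 3′UTR share of 44.9% was 53.0% with UTRs taken before coding sequence and introns before ncRNA, 40.3% for scores above 1 in both lists, 35.7% for PDCD4 scores above 5 and 40.4% with each run counted once. The uridine share of 58.5% was 54.3% for scores above 1 in both lists, 39.3% for PDCD4 scores above 5 and 50.9% when read 1 nt downstream. PDCD4 had the higher score at 29.1% of positions in place of 34.0% after scaling by the summed scores, and IgG at 70.9% in place of 34.4%. With PDCD4 scores above 5, 25 genes were left of 486. With a pseudocount of 5 cDNAs, 19.6% of genes with a shared position and 7.85% of all genes had a log2 ratio above 1, so the nearness of both shares held for a pseudocount of 1 and not of 5. The other 24 alternatives to these values moved them by less than their interval or 1.5 times. The coding and intron shares moved beyond their interval in 4 alternatives and not in 10. A repeat-masked share of positions, planned with its alternatives, was not run, since the reference used here has no repeat mask. Scores of 1 to 3 cDNAs at most positions limit every ratio of scores.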
